A study of Mus musculus with 9 samples.

Results

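The MS4A family was followed here through 6 genes, Ms4a4a, Ms4a4c, Ms4a6b, Ms4a6c, Ms4a6d and Ms4a7, taken by name from the 46078 genes of the deposited expression table and described across 3 kinds of cultured mouse macrophages. All 3 kinds came from C57BL/6J mice and were kept in culture for at least 8 weeks before RNA was taken. BMM were bone marrow macrophages, whose medium the labels do not describe. FLM_M were grown from the livers of fetuses taken on gestational day 15 to 19, in medium holding L-cell supernatant at 30%, which supplies M-CSF, with serum at 20%. FLM_G came from fetal liver of the same stage and were grown in recombinant GM-CSF at 30 ng/ml with serum at 10%. There were 3 libraries of each, from wells plated in triplicate, so the p-values reflect only how these libraries vary, and that variation may be technical. BMM and the fetal liver cultures differed in tissue of origin and in the sex-linked RNAs given at the end. They may also have differed in growth factor and serum, since the BMM medium is not described. The stage of the mice is given here for the fetal cultures only and may have differed too. FLM_M and FLM_G differed in growth factor and serum. Within each pair of groups these factors cannot be told apart.

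MS4A proteins are small membrane proteins that span the membrane several times. The best known members are CD20 (Ms4a1) on B cells, the beta chain of the IgE receptor (Ms4a2) on mast cells and Ms4a3 in granulocyte and monocyte progenitors, while a second group of genes of the same cluster is used by monocytes and macrophages. In macrophages MS4A4A has been found at the surface together with the beta-glucan receptor Dectin-1, and the MS4A cluster has been tied to the shedding of TREM2, a lipid-sensing receptor of macrophages and microglia. Ms4a7 is widely used as a marker of macrophages at the borders of the brain.

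The 6 genes lie within the same cluster on mouse chromosome 19, with other genes, such as Ms4a4b, between some of them. In the GENCODE M21 annotation of GRCm38 they run from Ms4a7 (chr19:11321039-11336146, minus strand) through Ms4a4a (chr19:11375523-11392790, plus strand), Ms4a4c (chr19:11404770-11427246, plus strand), Ms4a6c (chr19:11469366-11482192, plus strand) and Ms4a6b (chr19:11516512-11531256, plus strand) to Ms4a6d (chr19:11586604-11604849, minus strand), a span of 283.8 kb. Ms4a6b and Ms4a6c were the most alike of all pairs of members, with longest coding transcripts identical at 84.0% of aligned bases. The values were 82.0% for Ms4a6b and Ms4a6d and 77.7% for Ms4a6c and Ms4a6d. The other pairs lay between 62.2% (Ms4a4c and Ms4a6c) and 78.3% (Ms4a4a and Ms4a6b). Stretches of 101 bases, the length of a read, were nevertheless almost all specific to 1 gene. Ms4a4c shared 27 of its 1623 such windows with Ms4a4b and Ms4a6c shared 9 of 1741 with Prdm11, both on the same strand, and the other 4 members shared none.

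Promoter sequences were found for 5 of the 6 members in the RefSeq table for GRCm38.p6, the exception being Ms4a6d. They cover 250 bases before to 50 bases after the start, and those of Ms4a6b, Ms4a6c and Ms4a7 are shown because they hold both of the motifs marked in capitals. These were searched on both strands, and are the core GGAAGT bound by ETS factors such as PU.1, and the pattern GAAANNGAA found in elements bound by interferon regulatory factors (IRF). The sequences are written 5′ to 3′ on the strand of each gene, from chr19:11518309-11518608 (Ms4a6b, plus), chr19:11469118-11469417 (Ms4a6c, plus) and chr19:11336097-11336396 (Ms4a7, minus).
Ms4a6b: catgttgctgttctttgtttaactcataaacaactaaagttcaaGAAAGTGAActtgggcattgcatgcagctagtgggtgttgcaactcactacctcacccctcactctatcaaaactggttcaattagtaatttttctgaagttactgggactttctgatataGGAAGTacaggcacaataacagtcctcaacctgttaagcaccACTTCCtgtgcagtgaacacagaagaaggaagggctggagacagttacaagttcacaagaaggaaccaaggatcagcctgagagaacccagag
Ms4a6c: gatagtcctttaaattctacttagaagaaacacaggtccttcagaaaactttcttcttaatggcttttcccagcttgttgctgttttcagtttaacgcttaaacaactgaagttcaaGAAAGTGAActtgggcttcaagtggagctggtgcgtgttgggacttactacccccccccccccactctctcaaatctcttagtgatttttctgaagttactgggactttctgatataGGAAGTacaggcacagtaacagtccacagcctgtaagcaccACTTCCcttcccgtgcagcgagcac
Ms4a7: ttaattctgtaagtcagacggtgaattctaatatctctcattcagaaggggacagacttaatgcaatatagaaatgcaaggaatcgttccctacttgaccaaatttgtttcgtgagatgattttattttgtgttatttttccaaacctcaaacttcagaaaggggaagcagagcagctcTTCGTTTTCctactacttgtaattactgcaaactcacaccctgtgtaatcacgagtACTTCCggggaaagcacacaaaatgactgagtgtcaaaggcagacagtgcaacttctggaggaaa
Ms4a6b and Ms4a6c held the ETS core at 2 places and the IRF pattern at 1, and Ms4a7 held each at 1 place. Ms4a4c held the ETS core at 1 place, and neither motif was matched in the window of Ms4a4a. Of 32544 promoters of the same length, 23.7% held the ETS core and 8.53% the IRF pattern. A STAT element (TTCNNNGAA, in 8.33% of promoters) and an AP-1 element (TGANTCA, in 7.79%) were matched in none of the 5. The windows of Ms4a6b and Ms4a6c were identical at 85.3% of 225 aligned bases, whereas the other 9 pairs of members lay between 59.5% and 66.8%. The longest run that Ms4a6b and Ms4a6c had in common was 48 bases, beginning at base -118 from the start of Ms4a6b and at base -49 from that of Ms4a6c, and it includes 1 of the ETS cores, here left in lower case.
Shared run: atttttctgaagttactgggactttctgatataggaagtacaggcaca
A match is a description of letters, not of a bound site. The RefSeq starts used here lay 2891 bases from the outer GENCODE start of Ms4a4c and 2047 bases from that of Ms4a6b, and at most 35 bases from those of the other 3 genes.

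Levels are given as FPKM (fragments per kilobase, adjusted for sequencing depth), divided by a per-library TMM factor of 0.801 to 1.14 so that the typical gene is level across libraries, and called scaled FPKM. The steps between low FPKM values put the depth of the libraries at 28400000 to 35500000 reads. Libraries of 1 culture correlated with each other at 0.986 to 0.992 over the tested genes and with those of other cultures at 0.784 to 0.934. Of the 46078 genes, 11952 reached 1 FPKM in 3 or more libraries and were tested with limma on log2(scaled FPKM + 1), with Benjamini-Hochberg adjustment over all of them and a threshold of 0.05. Without TMM scaling the median gene was 0.34 lower in FLM_G than in BMM and 0.39 lower than in FLM_M on the log2 scale. The split of calls then moved from 4044 higher and 4081 lower to 2081 and 6775 for FLM_G against BMM, and from 4246 and 4195 to 2218 and 7075 for FLM_G against FLM_M. All 8 macrophage markers examined, among them Csf1r, Adgre1 and Spi1, were expressed in all 3 cultures, with Csf1r at 368 ± 8, 433 ± 28 and 119 ± 5 scaled FPKM (SD, n = 3) in BMM, FLM_M and FLM_G.

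Fetal liver macrophages grown in M-CSF carried more RNA of 5 of these 6 genes than bone marrow macrophages, and each of the 6 was lower in those grown in GM-CSF. Ms4a6d stayed abundant in all 3 cultures, while Ms4a6c, Ms4a6b, Ms4a4c and Ms4a4a came down to about 1 scaled FPKM or less in FLM_G and Ms4a7 to 5.34 ± 0.36 (SD, n = 3). In FLM_M against BMM 5 of the 6 genes were higher and none was lower, with Ms4a6c not called. In that comparison 44.6% of the 11952 tested genes were called, 22.7% higher and 21.9% lower, and 57.3% had groups that did not overlap. The median log2 difference of the 6 genes was 0.57, beside -0.0015 over all tested genes. In these bulk cultures fewer cells with a transcript and less transcript per cell cannot be told apart.

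All 6 members passed the filter on low values, but in different ways. Ms4a6d and Ms4a7 had at least 1 FPKM, as deposited, in all 9 libraries. The other 4 had it in the 6 BMM and FLM_M libraries and in none of FLM_G, so they entered the test only through the cultures in which they were high, and the number of members called lower in FLM_G is no evidence about the family. In FLM_G against BMM 68.0% of tested genes were called, 33.8% as higher and 34.1% as lower, and 73.2% had groups that did not overlap. In FLM_G against FLM_M these shares were 70.6%, 35.5%, 35.1% and 72.4%. Each member was called lower in both comparisons, which share the FLM_G libraries, and the values that follow are given gene by gene.

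**Figure D1:**
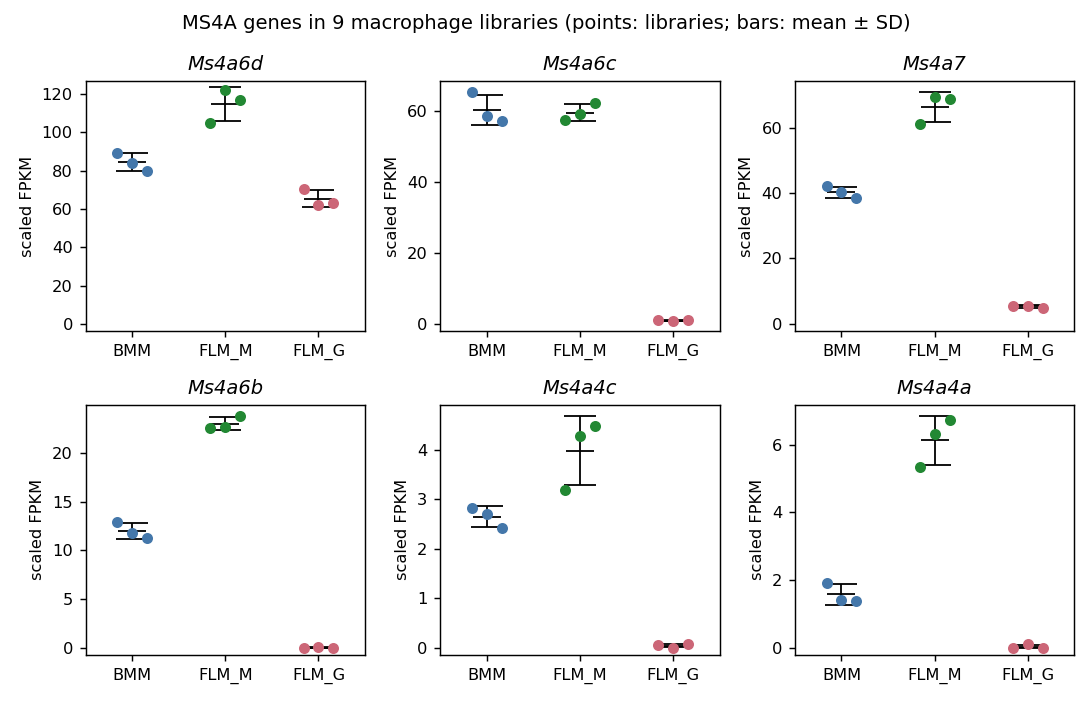
Scaled FPKM (linear axis, a separate scale for each gene) of the 6 MS4A genes in the 9 libraries; points are libraries, and the bars give the mean ± SD of 3. Ms4a6d keeps 62.3 to 70.4 scaled FPKM in FLM_G, where Ms4a6c lies between 0.773 and 1.07.

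Ms4a6d (ENSMUSG00000024679), a member of the Ms4a6 group expressed in macrophages, was the most abundant of the 6 in every library. It stood at 89.5, 84.0 and 79.9 scaled FPKM in the 3 BMM libraries, at 105, 122 and 117 in FLM_M and at 70.4, 62.3 and 63.2 in FLM_G. The 3 cultures did not overlap, with FLM_M highest and FLM_G lowest. FLM_M was 1.36-fold above BMM (log2 difference 0.44, SE 0.08, limma adjusted p = 0.00156). FLM_G was 1.29-fold below BMM (log2 -0.37, SE 0.08, limma adjusted p = 0.00229) and 1.76-fold below FLM_M (log2 -0.80, adjusted p = 1.40e-05). Its difference between FLM_G and BMM was the smallest among the 6 and depended most on scaling, at -0.78 on the log2 scale without it. Ms4a6d was above 95.1% of the tested genes in BMM, 96.8% in FLM_M and 92.4% in FLM_G.

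Ms4a6c (ENSMUSG00000079419), a gene of monocytes and macrophages, was the second most abundant member in BMM. It stood at 65.2, 58.7 and 57.2 scaled FPKM in BMM, at 57.3, 59.0 and 62.1 in FLM_M and at 1.07, 0.773 and 0.968 in FLM_G. BMM and FLM_M overlapped, and all FLM_G libraries lay far below both. The log2 difference of FLM_M from BMM was -0.02 with a 95% interval from -0.19 to 0.15 (limma adjusted p = 0.868), and its sign turned to 0.04 without scaling. FLM_G was 64.5-fold below BMM (log2 -4.99, SE 0.07, limma adjusted p = 9.41e-11) and 63.6-fold below FLM_M (log2 -4.97, adjusted p = 7.70e-11). Among the 11952 tested genes 22 fell further than Ms4a6c on the log2(scaled FPKM + 1) scale in FLM_G against BMM and 44 in FLM_G against FLM_M. Its place among the tested genes moved from above 92.9% of them in BMM to above 8.48% in FLM_G.

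A transcript of the opposite strand, BE692007, overlaps Ms4a6c, and 891 of the 1741 windows of Ms4a6c occur in it as the complement. In the FPKM table BE692007 lay between 0 and 0.368 scaled FPKM. The deposited count table has the reverse arrangement, with 2601 to 3538 counts for BE692007 in BMM and FLM_M and 25 to 32 in FLM_G, and 0 to 79 for Ms4a6c. Ms4a6c and Ms4a6d separated sharply in FLM_G. On the log2(scaled FPKM + 1) scale Ms4a6c was below Ms4a6d by a mean difference (Ms4a6c minus Ms4a6d) of -0.48 in BMM, -0.93 in FLM_M and -5.10 in FLM_G. The change of this difference from BMM to FLM_G was -4.62 with no overlap of libraries. An exact permutation test (two-sided) gave p = 0.1, the smallest that 3 against 3 allows, and 0.102 after adjustment over 45 such differences. This test could not reach the threshold used for calls, so no conclusion is drawn from it. Ms4a6c also passed the filter only through BMM and FLM_M, so the lack of overlap is a description only. The same test was applied to all 15 pairs of members. In 1 of the 45 differences, Ms4a4c against Ms4a6d between FLM_M and BMM, the libraries overlapped. In FLM_G 4 members were below 1 FPKM in every library, so differences that involve them there depend on the pseudocount of 1. Other pairs of genes were not examined, so the count of overlaps is no evidence about the family.

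Ms4a7 (ENSMUSG00000024672), the border macrophage marker, was found in all cultures but at different levels. It stood at 42.0, 40.2 and 38.6 scaled FPKM in BMM, at 61.0, 69.3 and 68.6 in FLM_M and at 5.62, 5.47 and 4.94 in FLM_G. No library of 1 culture overlapped another culture. FLM_M was 1.65-fold above BMM (log2 difference 0.70, SE 0.07, limma adjusted p = 4.11e-05). FLM_G was 7.54-fold below BMM (log2 -2.70, adjusted p = 2.12e-09) and 12.4-fold below FLM_M (log2 -3.41, adjusted p = 3.81e-10). With 43.6% of tested genes below it in FLM_G, Ms4a7 remained in the middle of the range there.

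Ms4a6b (ENSMUSG00000024677), the member closest to Ms4a6c in sequence, differed from it in the comparison of the M-CSF fetal liver culture with bone marrow. It stood at 12.9, 11.8 and 11.3 scaled FPKM in BMM and at 22.6, 22.6 and 23.8 in FLM_M. In FLM_G it was listed at 0 in 2 libraries and at 0.018 in the other. FLM_M was 1.92-fold above BMM (log2 difference 0.89, SE 0.06, limma adjusted p = 3.70e-06). The log2(scaled FPKM + 1) difference of FLM_G was -3.69 from BMM (adjusted p = 1.29e-10) and -4.58 from FLM_M (adjusted p = 3.42e-11). These last values depend on the pseudocount of 1, which understates the difference of a gene near 0, and with 0.1 they were -6.83 and -7.77. Relative to Ms4a6c, Ms4a6b gained 0.91 on the log2 scale from BMM to FLM_M, with no overlap of libraries. The exact permutation test (two-sided, p = 0.1, the smallest possible) could not reach the threshold used for calls, so no conclusion is drawn from it.

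Ms4a4a (ENSMUSG00000101389), whose human counterpart is the partner of Dectin-1, had the largest rise among the 6 from BMM to FLM_M. It stood at 1.92, 1.41 and 1.39 scaled FPKM in BMM and at 5.34, 6.30 and 6.73 in FLM_M. In FLM_G it was listed at 0 in 2 libraries and at 0.096 in the third. FLM_M was 3.88-fold above BMM (log2 difference 1.47, SE 0.10, limma adjusted p = 4.91e-06), and the libraries did not overlap. With 1 annotated transcript of 836 bases, its FPKM could be turned into reads, about 55, 40 and 44 in BMM, 177, 184 and 226 in FLM_M and 0, 2 and 0 in FLM_G. Relative to depth multiplied by the TMM factor, the BMM sum was 48.1 times that of FLM_G (95% interval 13.1 to 401) and the FLM_M sum 187 times (51.6 to 1548), intervals that cover counting error only. With the pseudocount of 1 the limma log2 differences were -1.31 from BMM (adjusted p = 4.21e-06) and -2.78 from FLM_M (adjusted p = 2.16e-08), and with one of 0.1 they were -3.73 and -5.63.

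Ms4a4c (ENSMUSG00000024675), a member of the Ms4a4 group also known from monocytes, was low throughout. It stood at 2.82, 2.69 and 2.41 scaled FPKM in BMM, at 3.19, 4.27 and 4.48 in FLM_M and at 0.049, 0 and 0.068 in FLM_G. The lowest FLM_M library lay just above the highest BMM library. FLM_M was 0.44 higher than BMM on the log2 scale (95% interval 0.21 to 0.67, limma adjusted p = 0.00677), a call that was lost with a pseudocount of 0.1 (log2 0.56, adjusted p = 0.0547). The log2 difference of FLM_G was -1.81 from BMM (limma adjusted p = 4.32e-07) and -2.25 from FLM_M (adjusted p = 8.55e-08). These values too depend on the pseudocount of 1, and with 0.1 they were -4.33 and -4.89.

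**Figure D2:**
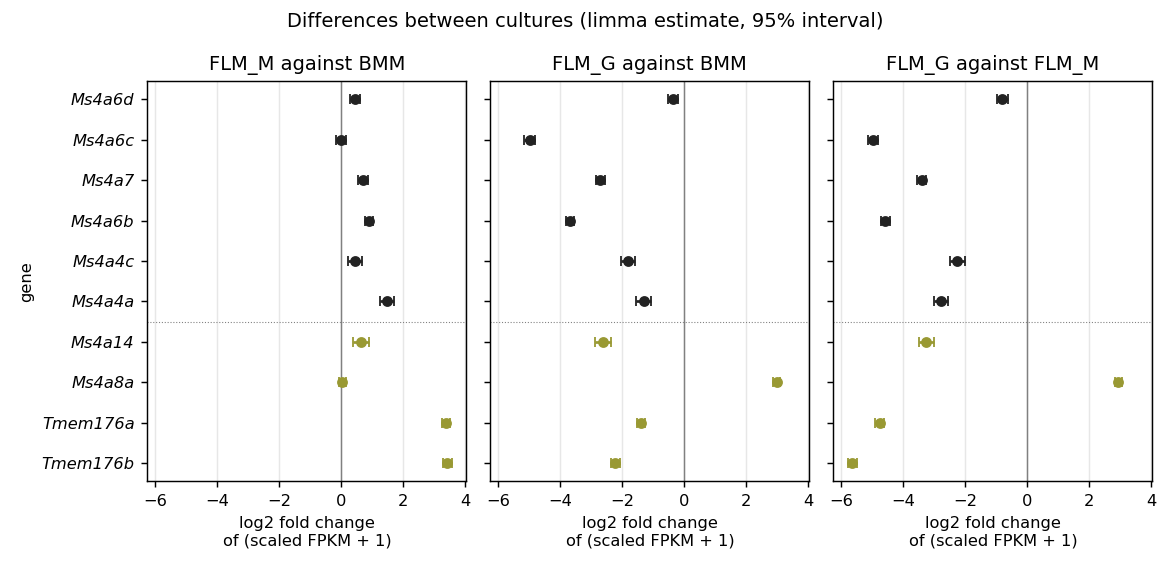
Log2 difference of (scaled FPKM + 1) with its 95% limma interval for the 6 MS4A genes (above the dotted line) and the 4 tested relatives (below it) in the 3 comparisons, the first-named culture minus the second. Ms4a6c sits at -0.02 in FLM_M against BMM and at -4.99 in FLM_G against BMM, and Ms4a8a is the gene to the right of 0 in both FLM_G panels.

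The order of the levels changed between the cultures. In BMM it ran Ms4a6d, Ms4a6c, Ms4a7, Ms4a6b, Ms4a4c and Ms4a4a, and no neighbours in that order overlapped. In FLM_M Ms4a7 (66.3 ± 4.6 scaled FPKM, SD, n = 3) and Ms4a6c (59.5 ± 2.4) overlapped in second place, and Ms4a4a (6.12 ± 0.71) lay above Ms4a4c (3.98 ± 0.69). In FLM_G the order of Ms4a6d, Ms4a7 and Ms4a6c was clear, while Ms4a4c, Ms4a4a and Ms4a6b overlapped near 0. The summed level of the 6 genes was 201 ± 12 scaled FPKM in BMM, 274 ± 17 in FLM_M and 71.7 ± 4.7 in FLM_G. Ms4a6d made up 42.0% ± 0.3 of that sum in BMM and 41.9% ± 1.0 in FLM_M, and 90.7% to 91.4% in the FLM_G libraries. The share of Ms4a6c went from 30.0% ± 0.5 in BMM to 21.8% ± 0.9 in FLM_M and 1.30% ± 0.15 in FLM_G. Ms4a7 held 20.0% ± 0.4, 24.2% ± 0.2 and 7.46% ± 0.44 (SD, n = 3). Ms4a6b held 5.95% in BMM and 8.42% in FLM_M and Ms4a4a 0.779% and 2.23%, so that in FLM_M both took a larger part of a larger sum.

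**Figure D3:**
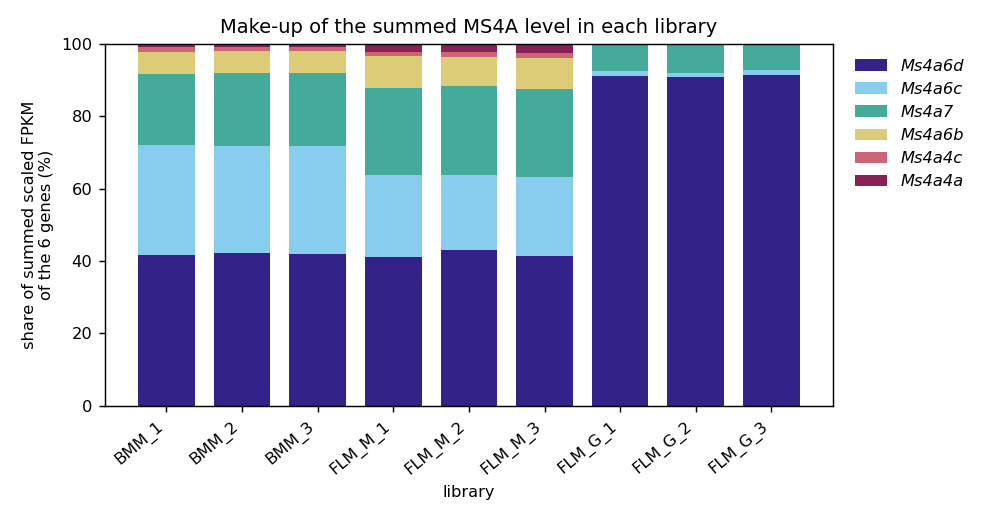
Share (%) of each of the 6 MS4A genes in their summed scaled FPKM, one stacked bar for each of the 9 libraries. Ms4a6d takes 42.0% in BMM, 41.9% in FLM_M and 91.1% in FLM_G on average.

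Relatives of these genes were looked for by name, which gave 15 rows of the expression table, 13 other rows named Ms4a and the related tetraspan genes Tmem176a and Tmem176b. RefSeq gives family names to 2 further rows, Ms4a19 to 1700025F22Rik and Ms4a20 to 1700017D01Rik, and both were listed at 0. Of the 15, 4 were tested, 9 were listed at 0 in all libraries and the remaining 2, Ms4a1 and Ms4a4b, reached at most 0.382 FPKM. Ms4a14, the neighbour of Ms4a7, stood at 9.15 ± 1.47 scaled FPKM in BMM, 14.7 ± 1.4 in FLM_M and 0.639 ± 0.035 in FLM_G (SD, n = 3). It was 0.64 higher in FLM_M than in BMM on the log2 scale (limma adjusted p = 0.00155) and 14.3-fold and 23.0-fold lower in FLM_G than in BMM and FLM_M. Ms4a8a, described in alternatively activated macrophages, was the exception: it was listed at 0 in BMM and in 2 of 3 FLM_M libraries, and stood at 6.45, 7.15 and 6.94 scaled FPKM in FLM_G. Ms4a8a passed the filter only through FLM_G. Tmem176a rose from 1.64 ± 0.16 in BMM to 26.2 ± 0.8 in FLM_M (log2 3.37) and Tmem176b from 3.67 ± 0.06 to 49.1 ± 3.7 (log2 3.42), and both were listed at 0 in every FLM_G library.

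Between the outermost Ms4a genes, chr19:10962293-11640851, the annotation places 35 genes over 678.6 kb, 19 of them named Ms4a and 22 protein-coding. Of the 35, 11 were tested, including the 6 members, and 17 were listed at 0. Of the tested genes 3 are not named Ms4a. The long non-coding RNA AW112010 was at 4.42 ± 0.35 scaled FPKM in BMM, 7.5 ± 1.5 in FLM_M and 36.8 ± 0.6 in FLM_G (log2 2.80 for FLM_G against BMM, limma adjusted p = 7.77e-08). The pseudogenes, whose reads may come from other genes of like sequence, were Gm6501, at 5.85, 3.97 and 3.52 scaled FPKM on average, and Gm5511, at 2.99, 2.42 and 2.0. Neither was called between FLM_G and FLM_M. In FLM_G the tested genes at the left end of the cluster, AW112010 and Ms4a8a, had higher levels than 5 of the 6 members, and Ms4a6d at the right end had the highest of all 11.

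**Figure D4:**
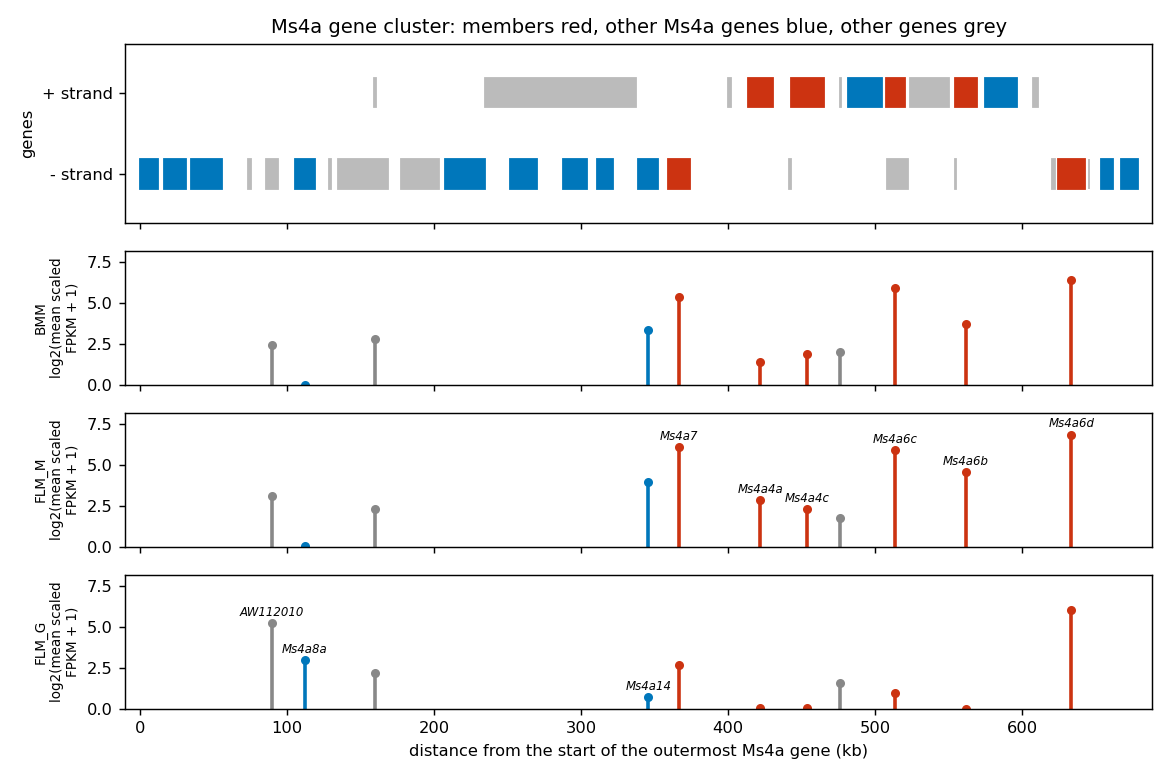
The Ms4a cluster in kb from the outermost Ms4a gene: the top panel shows genes by strand (members red, other Ms4a genes blue, other genes grey), and the lower panels show log2(mean scaled FPKM + 1) of the 11 tested genes in each culture. In FLM_G the tall lines are AW112010, with a mean of 36.8 scaled FPKM, and Ms4a6d, with a mean of 65.3.

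Genes of pathways and cell states in which MS4A genes are usually discussed were examined by list. Of 10 genes of TREM2 and Dectin-1 signalling, 1 was higher and 2 were lower in FLM_M against BMM (median log2 difference -0.10). In FLM_G 5 were higher and 4 lower against BMM (median 0.31), and 5 were higher and 3 lower against FLM_M (median 0.57). Over all tested genes 44.6%, 68.0% and 70.6% were called either way in these 3 comparisons, so the counts are no evidence about the list. Clec7a, which encodes Dectin-1, stood at 6.34 ± 0.48 scaled FPKM in BMM, 11.4 ± 1.2 in FLM_M and 895 ± 40 in FLM_G. Its change was opposite in sign to that of Ms4a4a in FLM_G. Syk, the kinase downstream of Dectin-1, rose in FLM_G against BMM by 1.60 on the log2 scale and Malt1 by 1.56. Adam10, a protease that can shed TREM2, fell by 0.88 in FLM_M against BMM. Trem2 itself was at 98.1 ± 5.8, 92.1 ± 5.1 and 60.4 ± 4.2 scaled FPKM, lower in FLM_G than in BMM by a log2 difference of -0.69 (limma adjusted p = 2.79e-05).

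Of 16 genes typical of resident macrophages, 14 were tested. In FLM_M against BMM 7 were higher and 6 lower (median log2 difference -0.01). There C1qa, a subunit of complement C1q, rose by 1.23 and Folr2, a folate receptor, by 1.10, while the apolipoprotein gene Apoe fell by 5.61. In FLM_G 12 were lower and 1 higher against BMM (median -6.14), and 10 were lower and 1 higher against FLM_M (median -5.75). Over all tested genes 34.1% and 35.1% were called lower in these comparisons. Some of the listed genes, C1qa, C1qc and Folr2 among them, were below 1 FPKM in every FLM_G library. They entered the test only through the other cultures, so these counts are no evidence about the list. C1qa, C1qb and C1qc differed between FLM_G and BMM by -9.43, -8.84 and -8.61 in log2(scaled FPKM + 1), the largest of the list on that scale, which understates the difference of genes near 0 such as Gas6, Stab1 and Folr2. The mannose receptor gene Mrc1 went the other way, from 44.7 ± 4.2 scaled FPKM in BMM to 232 ± 19 in FLM_G (SD, n = 3).

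All 16 interferon-stimulated genes were called in each comparison, higher in FLM_M than in BMM (median log2 difference 2.28), lower in FLM_G than in BMM (median -1.98) and lower in FLM_G than in FLM_M (median -4.44). Over all tested genes these shares were 22.7%, 34.1% and 35.1%. Some of the listed genes, Cxcl10 and Ifit3 among them, were below 1 FPKM in every FLM_G library and entered the test only through the other cultures, so the FLM_G counts are no evidence about the list. The chemokine gene Cxcl10 stood at 3.72 ± 0.34 scaled FPKM in BMM, 64.7 ± 10.0 in FLM_M and 0.029 ± 0.026 in FLM_G. Ifit3 was at 14.4 ± 0.9, 157 ± 13 and 0.700 ± 0.075. Ms4a4a, Ms4a4c, Ms4a6b, Ms4a6d and Ms4a7 had the same order of cultures, whereas Ms4a6c was not called between BMM and FLM_M. Of these, Ms4a4a, Ms4a4c and Ms4a6b were below 1 FPKM in every FLM_G library and also entered the test only through the other cultures. How many of all tested genes share this order was not counted, so it is no evidence about the family, and a link to interferon was not tested. Of 10 genes usually seen in monocytes, 6 were tested. In FLM_M against BMM 4 of them were lower and 1 higher, among them the chemokine receptor gene Ccr2, which fell by 2.91 on the log2 scale. In FLM_G against BMM 4 were lower and 1 higher, and against FLM_M 1 was lower and 5 higher, with haptoglobin (Hp) at 17.6 ± 1.3 scaled FPKM in FLM_G and 0.012 ± 0.021 in FLM_M. Hp passed the filter only through FLM_G. Over all tested genes 22.7% were called higher and 21.9% lower in FLM_M against BMM. For FLM_G these shares were 33.8% and 34.1% against BMM, and 35.5% and 35.1% against FLM_M. With only 6 tested genes, the counts of monocyte genes are no evidence about the list.

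For each member the genes most like it were taken by Pearson correlation of log2(scaled FPKM + 1) over the 9 libraries, among 5725 or 5726 tested genes with a mean of at least 10 scaled FPKM in 1 culture. With 3 cultures of 3 libraries each, r follows the 3 culture means and is given as a description. Ms4a4a was most like Htr2b, Pyhin1 and Isg15, each with r = 0.996, of which Isg15 belongs to the list of interferon-stimulated genes used above. Ms4a4c was most like Arrb2 (0.997), Nudc (0.996) and its family member Ms4a7 (0.996). Ms4a6b was most like Rgs18 (1.000), B3galnt1 (0.999) and Galnt12 (0.999). Ms4a6c was most like Fcrls, the platelet factor gene Pf4 and C1qb, each with r = 0.999. Ms4a6d was most like Uchl5 (0.995), Mfap1b (0.995) and Cenpk (0.993), and Ms4a7 most like Ctla2a, Cd72 and Tspan3, each at 0.999. Such values were common for 5 of the members, with 39 to 134 candidates at r of 0.99 or more, and rarer for Ms4a6d, with 5.

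Markers of other cells were low. B cell genes, which include Ms4a1, summed to 0.953 to 1.12 scaled FPKM in BMM, where 1 of 5 markers, Cd79b, averaged 1.02 and 3 of 5 were at 0, and to 0 in the fetal liver cultures. Mast cell, granulocyte, T cell, dendritic cell and fibroblast lists of 5 markers each had no marker with a mean of at least 1 in any culture. Erythroid markers summed to at most 0.075 in BMM, 2.27 to 2.73 in FLM_M and 4.21 to 6.00 in FLM_G, of which Epor made nearly all. Hepatocyte markers summed to 1.59 to 1.92, 1.94 to 2.57 and 0.790 to 1.13, all of it Afp, with the other 4, Alb included, at 0. The part of these cells in the MS4A differences was not tested. Xist averaged 0.0020 scaled FPKM in BMM, 70.9 ± 3.6 in FLM_M and 48.5 ± 6.8 in FLM_G, and the Y-linked Ddx3y 9.20 ± 1.09, 0 and 0.0055.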

How the data were processed

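RNA of 9 macrophage cultures was measured by sequencing with a stranded mRNA kit, read from 1 end for 101 cycles, per the labels' protocols. As builds the submitters' processing notes name GRCm38 and mm10, and as tools cutadapt, FastQC, bcl2fastq, StringTie, HISAT2 and DESeq2. Versions and the tool behind each table are not given in the sources used here. The authors deposited FPKM per gene and, in a second table, raw read counts per gene that sum to only 782400 to 1170813 per library.

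FPKM values were divided by TMM factors and tested with limma 3.58.1 (trend, 9 libraries, 6 residual degrees of freedom, two-sided) on log2(value + 1), in genes that reached 1 FPKM in 3 or more libraries. Levels per length, the small count totals and counts at Ms4a6c that lie with the opposite-strand gene BE692007 were the reasons for testing FPKM, and edgeR 4.0.16 (quasi-likelihood) and DESeq2 1.42.0 on the counts were alternatives. Other alternatives were RLE, upper-quartile or no scaling, a pseudocount of 0.1, no filter or one at 5 FPKM, a fit of the 6 libraries of each comparison alone, a replicate block and each library left out. Read depth was read from the FPKM steps of genes with 1 annotated transcript, where 46.8% to 52.2% of low values lay within 0.1 of a whole read. The scripts were tested on simulated data.

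The members and the gene lists were chosen with earlier results of these data known. The text names all members, all tested relatives, the tested genes of the locus, up to 3 called genes per list and comparison with the largest change and a mean of at least 5, and the 3 genes most like each member. Trem2, Mrc1, Gas6, Stab1, BE692007 and the cell type and sex markers given as examples lie outside that rule and were named after their values were seen.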

Additional observations from a re-analysis of the deposited data

How the results depend on the processing

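Across 17 FPKM-based alternatives, 299 of 303 member values kept their direction and side of the threshold. The exceptions were Ms4a4c in FLM_M against BMM with a pseudocount of 0.1 (0.56, adjusted p = 0.0547) and the uncalled Ms4a6c in the same comparison, which changed sign without scaling (0.044), without BMM replicate 1 (0.031) and without FLM_M replicate 1 (0.02), with a range of -0.066 to 0.031 over the libraries left out. Leaving out 1 library at a time gave 5, 6 and 6 called members throughout and 4192 to 5509, 7239 to 8063 and 7606 to 8242 called genes in FLM_M against BMM, FLM_G against BMM and FLM_G against FLM_M, beside 5329, 8125 and 8441. With a filter at 5 FPKM Ms4a4c gave no value.

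The deposited counts gave fewer calls: 1300, 2458 and 2855 genes with edgeR and 838, 2213 and 2641 with DESeq2. Members had at most 79 counts per library. In FLM_M against BMM edgeR called 3 members and DESeq2 1, and in FLM_G against BMM each called 3. In FLM_G against FLM_M both called Ms4a6b, Ms4a6c, Ms4a6d and Ms4a7 lower. The share of all genes called is not given for these tests, so the counts of members are no evidence about the family. Ms4a6c in FLM_M against BMM was 0.73 with edgeR (adjusted p = 0.0536) and 0.66 with DESeq2 (adjusted p = 0.337), from counts that at this locus lie with the opposite-strand BE692007 and may not measure Ms4a6c. Low counts were not confined to this locus. By its FPKM Ms4a14 had about 1052, 1307 and 1593 reads in BMM, but 3, 9 and 11 counts. Ms4a4a had about 177, 184 and 226 reads in FLM_M, but 2, 2 and 6 counts. Whether the counts measure the other members was not tested. Ms4a6d in FLM_G against BMM was not called (edgeR -0.60, adjusted p = 0.262, DESeq2 -0.65, adjusted p = 0.431). DESeq2 also lost Ms4a6b (1.18, adjusted p = 0.107) and Ms4a6d (1.05, adjusted p = 0.0998) in FLM_M against BMM and Ms4a4c in all 3 comparisons (adjusted p = 0.620, 0.521 and 0.0841). Ms4a4a and Ms4a4c had too few counts for edgeR, and DESeq2 gave no adjusted p for Ms4a4a in any comparison.

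Replicate numbers gave no clear pairing of the libraries: deviations of same-numbered libraries correlated at -0.0771 to 0.0899. In 4 of 9 such pairs the same-numbered library had the highest correlation within the other culture. These included every pair of FLM_G against BMM. With the number as a replicate block 5140, 8018 and 8386 genes were called, and no member's call changed.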
